A study of Rattus norvegicus with 96 samples.

Results

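Rats that had drunk alcohol without becoming dependent were compared with rats that had never drunk it, in the ventral tegmental area (VTA). The comparison took the 12 VTA arrays of a set of 96 and set 3 non-dependent arrays against 4 alcohol naive arrays, 7 arrays in all. The 4 dependent VTA arrays entered the fit only to help estimate the spread, and are shown beside the others. The non-dependent rats worked a lever for 10% alcohol for 4 weeks and were then kept in air, without alcohol vapor. The dependent rats had the same 4 weeks of self-administration and then 4 weeks of intermittent alcohol vapor. Both drinking groups were tested for alcohol self-administration again after the period of vapor or air. The naive rats were of matched age and had no alcohol. All were adult male Wistar rats, and tissue was taken in protracted abstinence, 3 weeks after the vapor exposure and the drinking sessions had ended. The study profiled 8 brain regions of these 3 groups on rat expression arrays, with 4 arrays per region and group, from 30 or 50 ng of amplified RNA of microdissected tissue.

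The VTA holds the midbrain dopamine neurons that project to the nucleus accumbens and prefrontal cortex, together with GABA and glutamate neurons and glia. Alcohol raises the firing of its dopamine neurons, and GABA, opioid, nicotinic and stress peptide inputs set how strongly they fire. Dopamine neurons are known for long, branched axons and for a high demand on mitochondrial respiration.

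The dissection was checked against the markers of dopamine neurons. Over the 11 VTA arrays used, Th, the rate-limiting enzyme of dopamine synthesis, lay between 7.88 and 10.9 on the log2 signal scale of the arrays, against 2.81 to 4.27 on 82 arrays of the other regions. The dopamine transporter Slc6a3 lay between 9.67 and 11.02 in the VTA and between 2.55 and 3.51 elsewhere, and neither marker's range in the VTA met its range elsewhere. The midbrain transcription factor Foxa2 was at 5.75 to 9.01 against 2.03 to 2.71. Pitx3, another dopamine neuron factor, was dim everywhere, at 1.93 to 2.46 in the VTA, and was not tested, like the opioid receptor gene Oprm1 at 2.67 to 3.12. Non-dependent replicate 2 stood apart and was left out. Its bacterial hybridization controls averaged 12.5, against 9.43 to 10.4 on the 3 arrays kept, its Gapdh signal was 7.54 against 11.05 to 11.28, and its highest correlation with any other array was 0.93. Of the arrays kept, non-dependent replicate 4 had the highest bacterial controls, at 10.4, against 9.19 to 9.49 on naive and 8.29 to 9.48 on dependent VTA arrays. Its Gapdh signal, at 11.28, was not low. In bulk tissue, fewer cells of a type and less RNA per cell cannot be told apart, and the p-values measure only the spread between these arrays.

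No gene passed the test. Of 8814 genes with a mean log2 signal above 4, 0 were called higher or lower by limma at a Benjamini-Hochberg adjusted p under 0.05 (0% called), and the methods' t-test also called 0. At an unadjusted p under 0.05, 284 genes were higher (3.22%) and 289 were lower (3.28%) in non-dependent VTA, a total of 573 genes or 6.5%. On 293 genes (3.32%) all 3 non-dependent arrays lay above all 4 naive arrays, and on 269 genes (3.05%) all 3 lay below. The differences were centred on zero, with a median of -0.01 log2 units, where 1 log2 unit is a 2-fold difference. Only 25 genes differed by more than 1 unit, and 12 of these had groups that did not overlap. The median standard error was 0.17, which gives a typical 95% interval of 0.36 to either side for a single gene, and the test adjusted over all genes needs larger differences than that. The shares of 3.22% higher and 3.28% lower genes, 6.5% in both directions, are the background of every list count at an unadjusted p under 0.05 given below. For list counts without overlap the background is 3.32% higher and 3.05% lower. For counts of positive differences it is 4323 of the 8814 genes. The genes below are therefore described by their values, and are those with the smallest p among genes without overlap.

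The gene with the smallest p was Eci2, an enoyl-CoA isomerase needed for the beta-oxidation of unsaturated fatty acids. Its log2 signal was 9.06, 9.41 and 9.53 on the non-dependent arrays, against 8.49, 8.27, 8.44 and 8.26 on the naive arrays. Every non-dependent array lay more than 0.5 units above the highest naive array, and the dependent arrays, at 8.43 to 8.70, lay below all 3 non-dependent ones. The difference was 0.97 ± 0.14 (SE), with an adjusted p of 0.13 (limma), the lowest of all genes, and that adjusted p ranged between 0.0428 and 0.975 over the alternative settings.

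Ndufv3, an accessory subunit of respiratory complex I, was also higher without overlap. Its signal was 5.66, 5.93 and 6.55 in non-dependent VTA and 5.40, 4.75, 4.86 and 5.06 in naive VTA. The difference was 1.03 ± 0.22, with an adjusted p of 0.68, and the dependent arrays lay at 4.52 to 5.05, within or below the naive range. Eci2 and Ndufv3 both act in the mitochondrion. Their promoters are shown because they lead the mitochondrial genes described here, with the 250 bases before the RefSeq start on the GRCr8 assembly, plus strand, at chr17:30075516-30075765 for Eci2 and chr20:9613536-9613785 for Ndufv3. Capitals mark the GC box, GGGCGG on either strand.
Eci2: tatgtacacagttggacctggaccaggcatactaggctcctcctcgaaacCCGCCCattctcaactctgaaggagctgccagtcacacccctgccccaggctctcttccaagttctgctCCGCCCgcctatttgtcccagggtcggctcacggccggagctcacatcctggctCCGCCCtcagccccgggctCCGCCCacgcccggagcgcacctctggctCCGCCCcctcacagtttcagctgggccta
Ndufv3: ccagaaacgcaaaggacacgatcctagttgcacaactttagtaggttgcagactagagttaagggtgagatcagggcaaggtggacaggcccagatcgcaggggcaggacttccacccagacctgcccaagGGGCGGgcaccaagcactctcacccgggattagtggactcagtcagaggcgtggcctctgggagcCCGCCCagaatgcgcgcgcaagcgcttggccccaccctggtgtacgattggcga
The Eci2 window held 5 matches and the Ndufv3 window 2. The GC box was found in 32.4% of 27457 rat promoters of this length, and in 32.2% of the 59 promoters matched to genes of oxidative phosphorylation. Neither window held the glucocorticoid receptor core site AGAACA, found in 17.1% of all promoters and 6.78% of those 59, nor the heat shock element GAANNTTC, the cAMP response element TGACGTCA or the E-box CACGTG, each looked for on both strands. A match is a run of letters and is not evidence of binding.

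Genes of membrane traffic and the cytoskeleton were also among those higher without overlap. Rab8b, a small GTPase that directs vesicles to the plasma membrane, was at 8.33, 8.24 and 8.39 in non-dependent VTA and at 7.68, 7.81, 7.68 and 7.59 in naive VTA. The groups were tight, and the dependent arrays lay mostly between them, at 7.78 to 8.17. The difference was 0.63 ± 0.12, and it was -0.02 when non-dependent replicate 2 was kept. Clip2, a linker of microtubule ends, was at 5.87, 5.52 and 6.54 in non-dependent VTA, against 5.35, 4.995, 4.71 and 4.72 in naive VTA. It was higher by 1.03 ± 0.23, with non-dependent replicate 4 the highest array. Clec2l, a lectin-like membrane protein gene, was higher by 0.93 ± 0.19, and Septin5, a filament-forming GTPase found on synaptic vesicles, by 0.60 ± 0.15. Ormdl2, a regulator of sphingolipid synthesis in the endoplasmic reticulum, was at 8.27, 8.42 and 8.40 in non-dependent VTA and at 7.72 to 7.98 in naive VTA. These genes each had an adjusted p of 0.68.

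The remaining higher genes of this rule included several that act in the nucleus. Nop2, an RNA methyltransferase of the nucleolus, was at 6.23, 6.30 and 6.28 in non-dependent VTA, against 5.91, 5.84, 5.80 and 5.88 in naive VTA. It had the smallest standard error of these 12 genes, at a difference of 0.41 ± 0.10. Hexim2, an inhibitor of the elongation kinase P-TEFb, was higher by 0.71 ± 0.17, and Gps2, a subunit of a nuclear corepressor complex, by 0.68 ± 0.17. Ribc1 was higher by 0.56 ± 0.14. C13h1orf21, a gene of unannotated function, had the largest difference of the 12, 1.43 ± 0.37, but its naive arrays were spread between 6.88 and 8.74 below a tighter non-dependent group at 8.91 to 9.06.

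Among genes that were lower without overlap, Gtf3c6 had the smallest p. This gene, a subunit of the factor that recruits RNA polymerase III, was at 6.09, 6.03 and 5.95 in non-dependent VTA and at 6.54, 7.07, 6.99 and 6.996 in naive VTA. The dependent arrays, at 6.13 to 6.77, lay above all non-dependent arrays and partly within the naive range. It was lower by 0.88 log2 units, a difference of -0.88 ± 0.17. Luc7l2, a splicing factor of the U1 particle, was at 11.06, 11.39 and 11.12 in non-dependent VTA, against 11.79, 11.85, 12.05 and 11.72 in naive VTA. This was the brightest gene of the 24, and its dependent arrays, at 11.56 to 12.01, lay above all non-dependent arrays. The difference was -0.66 ± 0.14. Zfp775 and Zfp280d, both zinc finger genes, differed by -0.47 ± 0.12 and by -0.71 ± 0.18.

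Mdga2, a membrane-anchored protein that binds neuroligins and restrains synapse formation, was at 7.98, 8.77 and 8.35 in non-dependent VTA, against 9.28, 9.14, 9.48 and 9.28 in naive VTA. The dependent arrays, at 8.94 to 9.82, lay above all non-dependent arrays and around the naive ones. The difference between non-dependent and naive VTA was -0.93 ± 0.22. Txlng, a taxilin, differed by -0.66 ± 0.14, with its dependent arrays, at 7.63 to 7.79, within the naive range of 7.33 to 7.88. Iqub had the largest negative difference of the 12, at -1.01 ± 0.23, and Cspp1, a centrosome and spindle pole protein, differed by -0.80 ± 0.20. Ssr4, a subunit of the complex beside the protein translocon, differed by -0.50 ± 0.12, and Mcm9, a helicase of DNA repair, by -0.58 ± 0.14. Ube2h, a ubiquitin-conjugating enzyme, differed by -0.62 ± 0.15, and Chchd5 by -0.51 ± 0.12. All 12 lower genes had an adjusted p of 0.68.

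**Figure D1:**
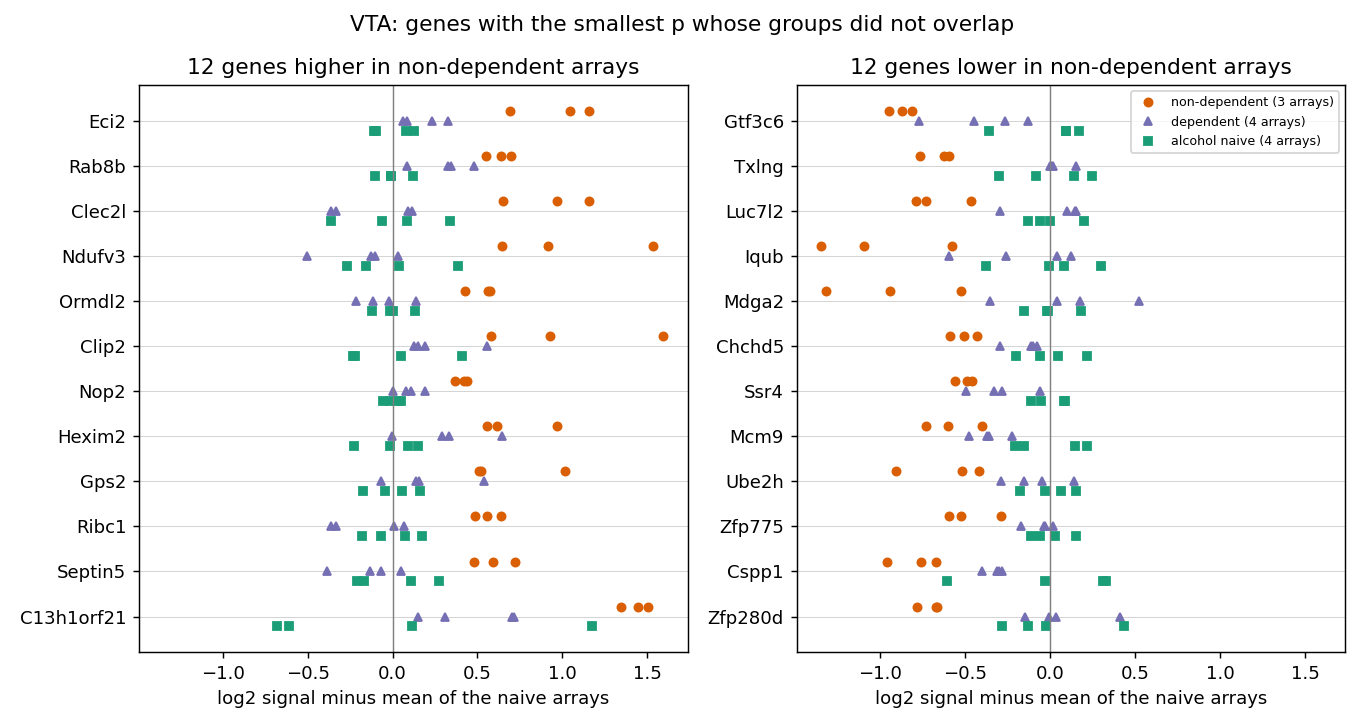
Log2 signal of the 12 genes higher and the 12 genes lower without overlap that had the smallest p, plotted per VTA array as the distance from each gene's naive mean (x axis, log2 units), for non-dependent, dependent and naive arrays. Eci2 has its 3 non-dependent arrays well to the right of all others, and for Mdga2 and Luc7l2 the dependent arrays lie near the naive ones.

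Of the function lists with more than 3 genes tested, oxidative phosphorylation had the highest share past the unadjusted threshold. It comprises the 5 complexes of the inner mitochondrial membrane that pass electrons to oxygen and make ATP. Of 66 genes tested, 57 had a positive and 9 a negative difference in non-dependent VTA, beside 4323 positive of all 8814 genes. At an unadjusted p under 0.05, 14 of the 66 were higher (21.2%, beside 3.22% of all genes) and 0 were lower. Without overlap, 11 of the 66 were higher, beside 3.32% of all genes. None passed the adjusted test. The median difference of the list was 0.21, against -0.01 over all genes tested.

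Complex I, which takes electrons from NADH, held most of these genes. Of its 32 subunits tested, 29 had a positive difference, with a median of 0.23. At an unadjusted p under 0.05, 10 were higher (beside 3.22% of all genes), and 9 were higher without overlap (beside 3.32% of all genes). Ndufb2, a small membrane subunit, was at 12.27, 12.26 and 12.26 in non-dependent VTA, against 12.09, 11.87, 11.75 and 11.81 in naive VTA, a difference of 0.38 ± 0.11. Ndufb6, its neighbour in the membrane arm, was at 11.04, 10.69 and 10.80 in non-dependent VTA, against 10.40, 10.38, 10.36 and 10.30 in naive VTA. All 3 non-dependent arrays lay above the naive arrays for both genes, and Ndufb6 differed by 0.48 ± 0.15. Ndufb10 differed by 0.52 and Ndufa13 by 0.50.

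The other complexes differed in how many members were higher. All 9 subunits tested of complex IV, cytochrome c oxidase, had a positive difference, with a median of 0.24, and Cox5b was higher without overlap by 0.40. The ATP synthase had 12 of 13 subunits positive, with a median of 0.20. Its stator subunit Atp5pb was at 11.83, 11.80 and 11.86 in non-dependent VTA, against 11.33, 11.41, 11.35 and 11.37 in naive VTA. Both groups were tight for Atp5pb, which differed by 0.47 ± 0.14, and 1 dependent array, at 11.90, lay with the non-dependent ones while the other 3 lay at 11.31 to 11.42. Complex III had 6 of 8 subunits positive with a median of 0.20, and its 2 extremes were Uqcrc1 at 1.07 ± 0.43, with overlapping arrays, and Cyc1, cytochrome c1, at -0.32. Complex II, succinate dehydrogenase, had 1 of 4 subunits positive and a median of -0.02.

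**Figure D2:**
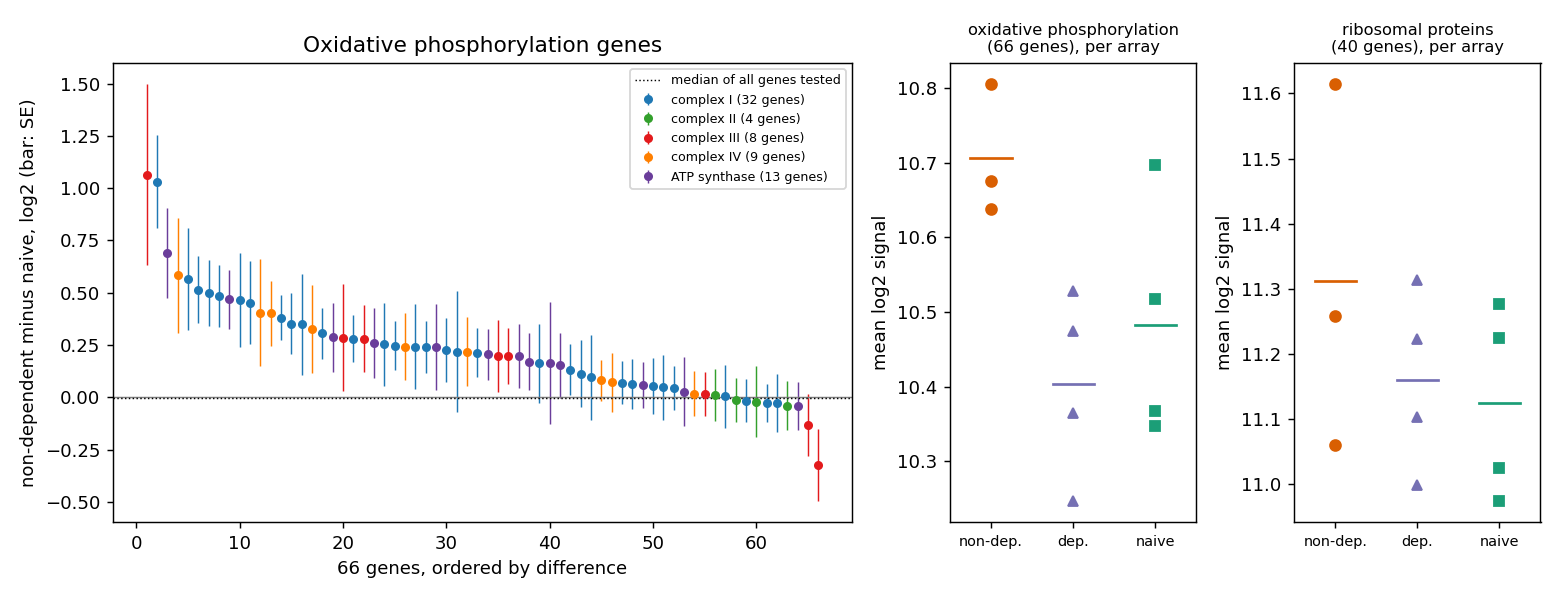
Non-dependent minus naive difference in log2 signal of each tested gene of oxidative phosphorylation, ordered by size and coloured by complex with bars for SE, and beside it the mean log2 signal of the 66 genes and of 40 ribosomal protein genes on each VTA array, with horizontal bars for group means. The 3 non-dependent means of oxidative phosphorylation lie between 10.64 and 10.81, and naive replicate 1, at 10.70, lies among them.

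Per array, the mean log2 signal of the 66 genes was 10.68, 10.64 and 10.81 in non-dependent VTA, 10.25, 10.37, 10.53 and 10.47 in dependent VTA, and 10.70, 10.35, 10.37 and 10.52 in naive VTA. The groups therefore overlapped, since naive replicate 1 lay among the non-dependent arrays, and the dependent arrays had a median difference from naive of -0.07. The list's median of the mean difference between non-dependent and naive rats in the 7 other regions was -0.04, and region by region the median lay between -0.15 in the nucleus accumbens core, where 8 members were positive, and 0.07 in the basolateral amygdala, where 43 were. With 1 array left out, 25 members were higher without naive replicate 1, 8 without naive replicate 2, 7 without naive replicate 3 and 8 without non-dependent replicate 4, while the list's median stayed between 0.15 and 0.27. Over all genes the higher counts in the same order were 433 of 8814, 244 of 8816, 205 of 8818 and 130 of 8803. The 3′ minus 5′ signal of the control gene Gapdh, a measure of RNA integrity, was looked at beside it. The 3′ minus 5′ signal of Gapdh was 1.74, 1.81 and 1.21 in non-dependent VTA, 1.53 to 1.65 in dependent VTA, and 1.55, 2.49, 2.05 and 2.44 in naive VTA. Naive replicate 1, the array with the high list mean, had the lowest value of the naive arrays. The other naive arrays, at 2.05 to 2.49, lay above every non-dependent array. The dependent arrays had low values and low list means. The 3′ minus 5′ signal of beta-actin was 8.05, 8.27 and 8.09 in non-dependent VTA, 7.83, 8.20, 8.35 and 8.43 in dependent VTA, and 7.93, 6.78, 7.90 and 7.18 in naive VTA. Its 5′ signal was near the floor on all these arrays, so for beta-actin this value mainly repeats the 3′ level and does not measure integrity. That 3′ level was 11.04 to 11.15 in non-dependent VTA, 10.83 to 11.42 in dependent VTA and 9.56 to 10.79 in naive VTA. The part of RNA integrity in the result was not tested.

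Cytosolic ribosomal proteins, whose transcripts are short and abundant, were mostly positive, with no member past either count. Of 40 tested, 37 had a positive difference with a median of 0.17, yet 0 were higher at an unadjusted p under 0.05 and 0 were higher without overlap. Their mean signal was 11.26, 11.06 and 11.62 in non-dependent VTA, against 11.28, 11.02, 10.97 and 11.22 in naive VTA. Non-dependent replicate 4 was the highest array, and without it the median was 0.04 and 29 of 40 were positive. Of 16 neurofilament and axonal genes, 13 were positive with a median of 0.15, and 2 were higher without overlap (beside 3.32% of all genes). Among these was Stmn3, a stathmin that regulates microtubules, by 0.20 ± 0.10.

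The dopamine genes themselves did not differ beyond the spread between arrays. Of 11 genes of dopamine synthesis, transport and breakdown tested, 0 were higher or lower at an unadjusted p under 0.05, and of 15 dopamine neuron identity genes also 0, with medians of 0.15 and 0.03. The median of the synthesis list changed sign without naive replicate 1 (-0.10) and without naive replicate 3 (-0.12), as it did with non-dependent replicate 2 kept (-0.10). It was also 0.03 without non-dependent replicate 1, 0.07 without replicate 3 and 0.08 without replicate 4 of that group. Th was at 9.30, 9.52 and 10.92 in non-dependent VTA, against 7.88, 9.41, 9.33 and 10.35 in naive VTA. The arrays of both groups spanned more than 1 log2 unit, and the difference was 0.67 ± 0.52. Ddc, the decarboxylase that follows Th, differed by 0.70 ± 0.40, the transporter Slc6a3 by 0.16 ± 0.31 and the vesicular transporter Slc18a2 by 0.16 ± 0.51. Slc18a2 was at 10.09 and 10.14 on 2 naive arrays and at 12.05 and 12.08 on the other 2, so that the naive arrays enclosed all non-dependent values.

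Nr4a2, a nuclear receptor that maintains dopamine neurons, was at 5.39, 5.37 and 6.78 in non-dependent VTA, 5.96, 7.13, 5.79 and 6.14 in dependent VTA, and 4.94, 5.36, 5.46 and 5.44 in naive VTA. Its difference from naive VTA was 0.55 ± 0.37 for non-dependent rats and 0.96 for dependent rats, which share the naive arrays, and the 4 dependent arrays lay above all naive ones. Foxa2 differed by 0.64 ± 0.67, and the growth factor receptor Ret by 0.05 ± 0.20. The autoreceptor gene Drd2 was at 5.05, 5.49 and 5.65 in non-dependent VTA, against 4.70, 5.31, 4.83 and 5.51 in naive VTA, a difference of 0.31 ± 0.22. Of 18 genes of dopamine receptors and their signaling, 0 were past the unadjusted threshold in either direction. Kcnj6, the potassium channel through which the D2 autoreceptor slows firing, differed by 0.07 ± 0.38.

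**Figure D3:**
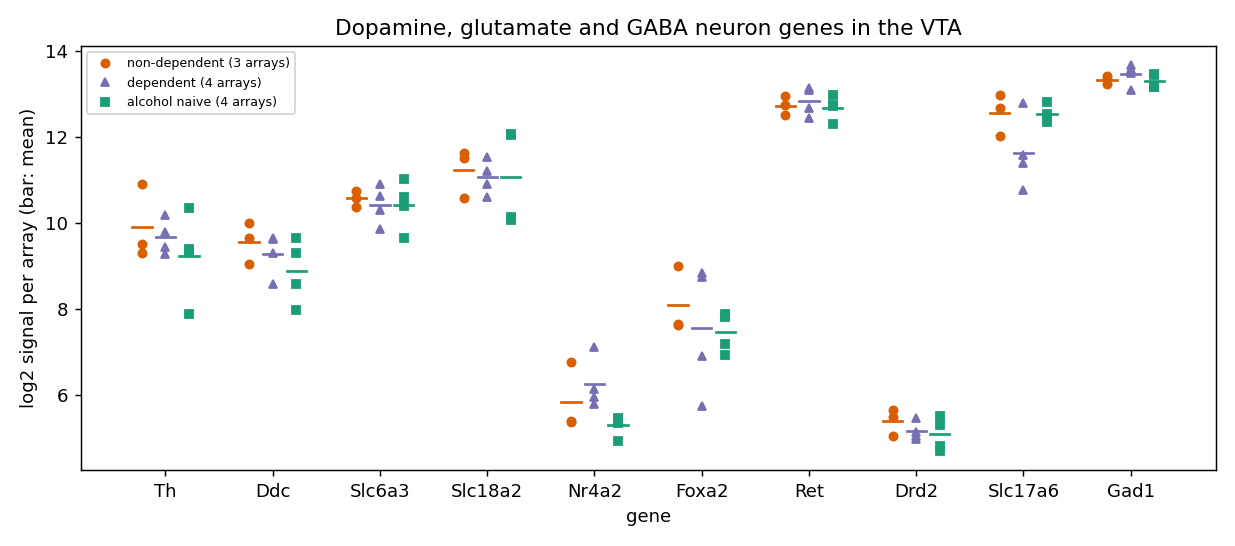
Log2 signal per VTA array (non-dependent, dependent and naive) of genes that define dopamine, GABA and glutamate neurons. Horizontal bars are group means. Non-dependent and naive arrays overlap for each gene shown, and the naive arrays of Slc18a2 fall into 2 high and 2 low values.

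Genes of the other transmitters were compared in the same way. Gad1, which makes GABA, differed by 0.02 ± 0.15. Slc17a6, the vesicular glutamate transporter of midbrain glutamate neurons, differed by 0.03 ± 0.38 in non-dependent VTA and by -0.90 in dependent VTA. Of 17 genes of GABA signaling, Gabbr2, a subunit of the GABA-B receptor, alone was past the unadjusted threshold. It was at 10.08, 9.87 and 10.29 in non-dependent VTA, against 9.81, 9.79, 9.59 and 9.49 in naive VTA, higher on every array by a difference of 0.41 ± 0.14. Of 22 genes of glutamate signaling, the AMPA receptor subunit Gria1 alone was past it. Gria1 was at 5.26, 5.01 and 4.91 in non-dependent VTA, 6.30, 4.87, 4.77 and 5.51 in dependent VTA, and 4.74, 4.40, 4.17 and 4.03 in naive VTA. Both drinking groups lay above the naive arrays, by 0.73 ± 0.32 in non-dependent and 1.03 in dependent rats.

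Of 3 acetylcholine receptor genes bright enough to test, Chrna5, the nicotinic subunit of the midbrain and interpeduncular nucleus, had the largest positive difference of all 8814 genes. It was at 6.70, 5.22 and 7.04 in non-dependent VTA, 6.45, 6.36, 6.41 and 5.03 in dependent VTA, and 3.30, 4.86, 6.73 and 2.92 in naive VTA. The naive arrays spanned nearly 4 log2 units and overlapped the others, so the difference of 1.87 ± 0.80 had an adjusted p of 0.72. Chrna5 is also among the markers of the interpeduncular nucleus, habenula and red nucleus, of which 5 were tested with a median difference of 0.02. The largest negative difference of all genes belonged to the neuropeptide gene Vip, at -1.86. Vip was not past the unadjusted threshold, and its arrays overlapped between the groups. Of 2 markers of neighbouring cholinergic and motor neurons tested, 1 marked out a single array. Slc5a7, the choline transporter, was at 4.22 to 6.22 in non-dependent VTA and at 4.75 to 6.60 on 3 naive arrays but at 11.7 on naive replicate 1. Prph did not, at 6.71 on that array, 5.75 to 6.64 on the other naive arrays and 6.17 to 7.09 in non-dependent VTA. Slc6a4, the serotonin transporter, ranged between 3.59 and 9.04 in non-dependent VTA and between 4.06 and 9.90 in naive VTA. The part of neighbouring nuclei in these differences was not tested.

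Of 26 genes of neuropeptide systems tested, 3 were lower at an unadjusted p under 0.05 and 0 were higher (11.5%, beside 3.28% lower and 3.22% higher of all genes), and the median was -0.14. Pdyn, the precursor of dynorphin, was at 4.25, 4.59 and 3.62 in non-dependent VTA, 5.19, 5.21, 5.18 and 4.75 in dependent VTA, and 4.802, 4.41, 5.03 and 4.81 in naive VTA. It differed from naive by -0.61 ± 0.22 in non-dependent VTA and by 0.32 in dependent VTA, and 1 naive array lay within the non-dependent range. Hcrtr2, a receptor for the arousal peptide orexin, was at 4.95, 4.30 and 3.94 in non-dependent VTA, against 5.39, 5.23, 4.69 and 4.65 in naive VTA, a difference of -0.59 ± 0.25. Tacr1, the substance P receptor, differed by -0.39 ± 0.15. Crhbp, which binds corticotropin-releasing factor, was spread widely, with a difference of -1.08 ± 0.56. All 3 of the lower genes overlapped between groups.

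Ion channel and release genes gave few that stood out. Of 22 potassium and pacemaker channel genes, 1 was lower at an unadjusted p under 0.05. This was Nalcn, the sodium leak channel that keeps dopamine neurons pacing, at 8.62, 8.51 and 7.31 in non-dependent VTA, against 8.62, 8.82, 8.84 and 8.82 in naive VTA. Its difference was -0.63 ± 0.26, and -0.21 without non-dependent replicate 4, the lowest array. Of 16 calcium and sodium channel genes, the calcium channel beta subunits Cacnb1 and Cacnb2 were past the threshold in opposite directions, at 0.25 ± 0.11 and -0.41 ± 0.18. Of 26 genes of synaptic vesicles and exocytosis, Rab3c was lower, at -0.61 ± 0.23 with overlapping arrays. Snap25, a core fusion protein, was higher on all 3 arrays at 13.60 to 13.73 against 13.44 to 13.51, a difference of 0.18 ± 0.09 that was not past it. Of 9 endocannabinoid and serotonin receptor genes, 0 were past it, and the cannabinoid receptor Cnr1 differed by -0.32 ± 0.25.

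The glucocorticoid system was the study's main interest. Nr3c1, the glucocorticoid receptor, was at 10.58, 10.64 and 10.25 in non-dependent VTA, against 10.47, 10.81, 10.74 and 10.64 in naive VTA, a difference of -0.18 ± 0.13. Nr3c2, the mineralocorticoid receptor, differed by -0.18 ± 0.16, and Fkbp5, a chaperone induced by glucocorticoids, by -0.10 ± 0.19. Of 19 receptors and induced genes tested, 1 was higher at an unadjusted p under 0.05, Tiparp, at 9.27 to 9.33 in non-dependent VTA against 8.71 to 9.09 in naive VTA. The study's own list of Nr3c1 targets was inferred from these arrays and is not independent evidence. Of its 303 targets tested, 10 were higher and 8 lower at an unadjusted p under 0.05, with a median of -0.03, and 5.94% of them were past the threshold in either direction, beside 6.5% of all genes. The study used another measure, the enrichment of a trimmed target list among genes ranked by absolute t. By it the study reported that inferred Nr3c1 activity in the VTA rose from naive to non-dependent to dependent rats. In the study's supplement, the step from naive to non-dependent VTA missed its own cutoff for a master regulator. The step from non-dependent to dependent VTA passed it. The study's introduction accordingly ties Nr3c1 recruitment in the VTA to dependence only. The study names no array as left out, so it appears to have kept the non-dependent VTA array dropped here. The count given here does not repeat the study's enrichment test.

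Stress-response genes were compared as well. Hsp90ab1, the constitutive cytosolic chaperone of steroid receptors and kinases, was at 11.17, 10.84 and 11.75 in non-dependent VTA, against 10.84, 10.77, 10.12 and 10.18 in naive VTA, higher by 0.78 ± 0.23. The lowest non-dependent array met the highest naive array. The small heat shock protein Cryab differed by 0.35 ± 0.14, and Hsf2, a heat shock transcription factor, was lower without overlap, at -0.41 ± 0.13. These were 3 of 26 heat shock genes tested (11.5%, beside 6.5% of all genes). Of 33 genes of the endoplasmic reticulum, 3 were higher at an unadjusted p under 0.05 and 1 lower (12.1%, beside 6.5% of all genes). The higher ones were Atf4, a transcription factor of the integrated stress response, at 0.50 ± 0.20, Prkcsh, a glucosidase subunit, at 0.52 ± 0.22, and the secreted factor Manf, at 0.35 ± 0.16, while the stress sensor Eif2ak3 differed by -0.25 ± 0.11.

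Of 15 immediate early genes, 2 were higher at an unadjusted p under 0.05 and 0 were lower (13.3%, beside 3.22% higher and 3.28% lower of all genes). Klf6 was at 5.22, 5.37 and 5.54 in non-dependent VTA, against 4.73, 5.08, 4.88 and 4.76 in naive VTA, higher without overlap by 0.52 ± 0.14. Dusp6, a phosphatase that ends ERK signaling, differed by 0.52 ± 0.23 with overlapping arrays. Of 14 clock genes, 12 had a negative difference, and Nr1d2, a repressor of the clock loop, was lower at an unadjusted p under 0.05, at -0.36 ± 0.15. Per2, the period gene, differed by -0.62 ± 0.31 and was not past the threshold. The median of the clock list was -0.08, and dropping non-dependent replicate 1 gave -0.03, dropping non-dependent replicate 3 gave -0.14 and dropping naive replicate 2 gave -0.14. No clock gene was past the threshold without non-dependent replicate 1 or without naive replicate 2, 3 or 4, and 3 were without naive replicate 1.

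Of 12 genes of ethanol and aldehyde metabolism, Aldh9a1, an aldehyde dehydrogenase, was the 1 past the unadjusted threshold, at -0.41 ± 0.16, and catalase, Cat, differed by 0.34 ± 0.22. Of 28 chromatin enzymes, the remodeling ATPase Smarca4 was higher, by 0.56 ± 0.24 in non-dependent VTA, with a difference of 0.56 in dependent VTA as well. The DNA methyltransferase Dnmt3a was lower, at 4.89, 4.65 and 5.44 in non-dependent VTA against 5.39 to 5.50 in naive VTA. Of 24 neurotrophic factor genes, Vegfb had the largest difference. This relative of the vessel growth factor was at 6.49, 6.16 and 7.16 in non-dependent VTA, 5.72 to 6.17 in dependent VTA, and 6.08, 5.75, 4.94 and 5.46 in naive VTA. All 3 non-dependent arrays lay above the naive ones, by 1.04 ± 0.28. Bdnf, the trophic factor most studied in this pathway, was dim and differed by -0.14 ± 0.21. Of 15 inflammatory genes, 0 were past the threshold in either direction.

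Markers of other cells were compared for the same arrays. Of 18 oligodendrocyte and myelin markers 0 were past the unadjusted threshold, with a median of 0.05, and of 15 astrocyte markers also 0, with a median of -0.08. The myelin gene Mobp was at 13.66 to 14.22 in non-dependent VTA and at 14.04 to 14.20 in naive VTA. The astrocyte water channel Aqp4 was at 13.42 to 13.62 in non-dependent VTA and at 13.52 to 13.73 in naive VTA. Among 10 microglia markers, Aif1 was higher at an unadjusted p under 0.05, by 0.59, while Ctss and P2ry12 differed by 0.10 ± 0.23 and -0.19 ± 0.21. Endothelial markers had a median of 0.19 over 11 genes with 0 past the threshold. Hbb, a hemoglobin gene, was at 7.41, 7.91 and 7.37 in non-dependent VTA, against 6.46, 6.34, 6.70 and 6.77 in naive VTA. It was higher without overlap by 0.995 ± 0.26, while Hba-a3 differed by 0.10 ± 0.14. The part of residual blood in the other differences was not tested.

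A separate test asked whether the difference between non-dependent and naive rats was another one in the VTA than in the rest of the brain regions sampled. The VTA difference was set against the mean difference of the 7 other regions over 61 arrays, after leaving out the non-dependent VTA array named above and 2 non-dependent arrays of the amygdala nuclei that also stood apart. The regions came from the same 4 rats per group, so arrays of different regions share animals, and the fit took them as independent. It also used a single spread per gene over all regions, which need not be the spread of the VTA arrays. Of 8776 genes, 14 passed an adjusted p under 0.05 in limma (0.16%), 10 with a more positive and 4 with a more negative difference in the VTA.

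Rab40b, a Rab GTPase that carries a ubiquitin ligase box, led this test. Its signal was 7.31, 6.10 and 6.88 in non-dependent VTA, 9.94, 8.77, 7.32 and 8.43 in dependent VTA, and 7.88, 7.73, 8.10 and 7.98 in naive VTA. The non-dependent arrays lay below all naive arrays, and 3 of the 4 dependent arrays lay above them. Its difference was -1.16 in the VTA, against -0.10 to 0.21 in the other regions, and the VTA difference minus their mean was -1.29 ± 0.18, with an adjusted p of 3.4e-05. In the fit of the VTA arrays alone the difference had a standard error of 0.48 and an adjusted p of 0.715. It was -0.59 with the mean of the gene's 2 probe sets. Mdga2, Gtf3c6 and Luc7l2, described above, were the other genes with a more negative VTA difference, by -1.03 ± 0.19, -0.76 ± 0.14 and -0.60 ± 0.12, each with an adjusted p of 0.0075.

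The 10 genes with a more positive difference in the VTA came from several processes. Clip2 exceeded the other regions by 1.07 ± 0.21 (adjusted p = 0.0081) and Ndufv3 by 0.97 ± 0.22 (adjusted p = 0.032). Paqr7, a membrane progesterone receptor, exceeded them by 0.99 ± 0.19 (adjusted p = 0.0078). It was at 6.91, 6.82 and 7.34 in non-dependent VTA, 5.46 to 6.25 in dependent VTA and 5.85 to 6.41 in naive VTA. Fbxo2, a ubiquitin ligase subunit that recognises glycoproteins, exceeded them by 0.89 ± 0.17 (adjusted p = 0.0075). Its arrays were at 5.97, 5.95 and 6.34 in non-dependent VTA, 4.55 to 5.43 in dependent VTA and 4.88 to 5.71 in naive VTA. For both genes the non-dependent arrays were the 3 highest of the VTA.

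Enzymes of intermediary metabolism were in the same group. These were Nme2, a nucleoside diphosphate kinase, by 0.57 ± 0.12, Tkt, the transketolase of the pentose phosphate pathway, by 0.58 ± 0.13, and Smpd1, the lysosomal sphingomyelinase, by 0.50 ± 0.11. Hsp90ab1 exceeded the other regions by 0.76 ± 0.16, Rint1, a tethering factor between endoplasmic reticulum and Golgi, by 0.84 ± 0.18, and Polr2j, a subunit of RNA polymerase II, by 0.80 ± 0.18. Their adjusted p lay between 0.00997 and 0.0396. Tkt and Hsp90ab1 overlapped between the 3 non-dependent and 4 naive VTA arrays, while the other 12 did not. The count rested on single arrays, above all non-dependent replicate 4. Without it 1 gene was called, Rab40b, and without naive replicate 3 the count was 5, while dropping non-dependent replicate 3 gave 102 and dropping naive replicate 1 gave 86. Rab40b was called without each of the 7 arrays in turn, and every one of the 14 kept its sign in all 10 settings run. In 2 of these settings none of the 14 was called. Over all 64 arrays, with the arrays that stood apart kept, the adjusted p of Rab40b was 0.98 and the lowest of all genes 0.070, and against the nucleus accumbens alone Rab40b had 0.079, the lowest there.

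**Figure D4:**
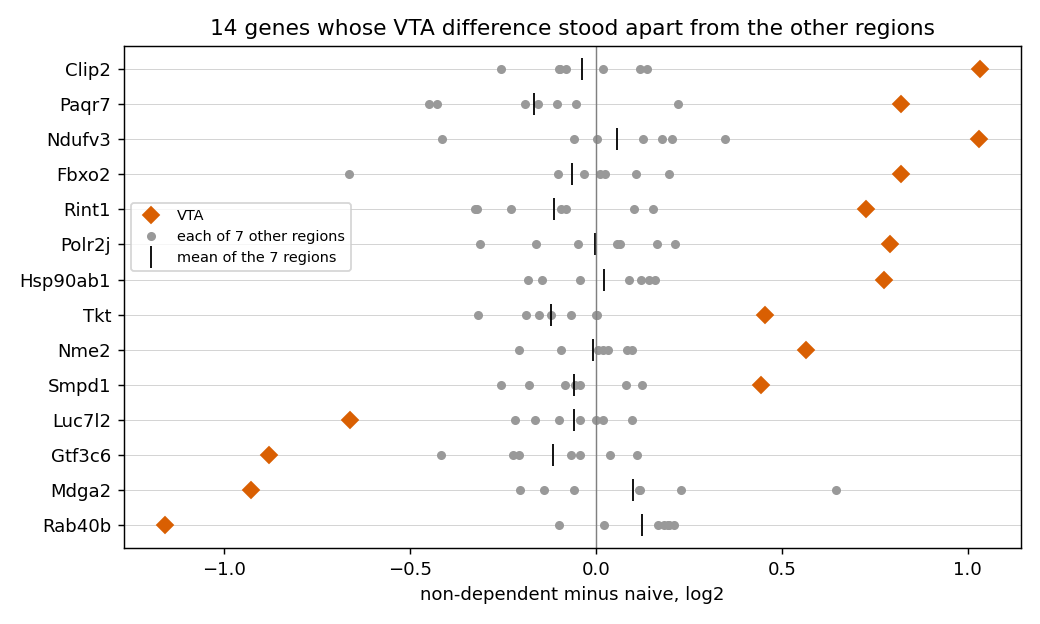
Non-dependent minus naive difference (x axis, log2 units) in the VTA and in each of the 7 other regions, for the 14 genes whose VTA difference differed from the mean of the others in limma. The VTA value of Rab40b lies at -1.16, with its other regions between -0.10 and 0.21, and the mPFC value of Mdga2 lies at 0.65.

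The spread over those 61 arrays was also used for the VTA comparison itself, a choice made after the values were seen. Here too the arrays of different regions share rats. With it, 16 genes were called in non-dependent against naive VTA, 11 higher and 5 lower, and 12 of the 16 were among the 14 above. Both sets of calls come from the same fit and the same VTA arrays, so the shared genes are not independent support. The lower genes were Rab40b, Gtf3c6, Luc7l2, Mdga2 and Mitd1, a factor of cell division, which differed by -1.07 (adjusted p = 0.024). The higher genes outside the 14 were Gps2, Clec2l and Vegfb. Eci2 was not called there (adjusted p = 0.099), with a standard error of 0.26 over all regions in place of 0.14 over the VTA arrays. Without non-dependent replicate 4, 4 genes were called, and without naive replicate 2 the count was 10, while dropping non-dependent replicate 1 gave 27, dropping non-dependent replicate 3 gave 131 and dropping naive replicate 1 gave 103. Rab40b, Gtf3c6 and Luc7l2 were called without each of the 7 arrays. The standard error of Rab40b was 0.17 over all regions, in place of 0.48 over the VTA arrays.

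Set beside the dependent rats, the genes named first in this account differed in pattern, though both differences share the naive arrays. Eci2 was 0.97 above naive in non-dependent VTA and 0.18 above in dependent VTA. Clec2l, Ndufv3, Septin5 and Ormdl2 were higher in non-dependent VTA and had differences of -0.12, -0.18, -0.13 and -0.05 in dependent VTA. Rab8b and Hexim2 had values of the same sign in both, at 0.31 and 0.32 in dependent VTA. Among the lower genes, Gtf3c6, Mcm9 and Cspp1 had negative values in both, at -0.40, -0.36 and -0.33 in dependent VTA, while Luc7l2, Mdga2, Txlng and Zfp280d differed by 0.03, 0.10, 0.05 and 0.07 there.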

How the data were processed

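The authors deposited one table of log2 values, made from the scans of Rat Genome 230 2.0 arrays with GCRMA 2.36.0 in R 3.03 per the labels, which corrects background by probe sequence, normalizes between arrays by quantiles and gives 1 log2 signal per probe set. Such values have no read depth. Precision is limited by the number of arrays, and dim signals are compressed. The table was used as deposited. Of 31099 probe sets, 20832 name 1 gene, 436 name several and 9831 none here, and only the first kind was used. Where a gene had several (4526 of 14218 genes), the brightest of them on average across all 96 arrays was taken. The platform annotation was matched to RefSeq symbols for 14168 genes.

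Genes with a mean above 4 over the arrays of the fit were tested with limma 3.58.1 in R 4.3.3 (lmFit, eBayes, Benjamini-Hochberg over all genes tested), with the non-dependent, dependent and naive VTA arrays as 11 arrays in 1 fit without replicate block. Groups without overlap were counted directly. The second test took the VTA difference minus the mean of 7 regions in a fit of 61 arrays. The code was tested on simulated arrays with known changes. The arrays were not paired by replicate number. The residuals of same-numbered non-dependent and naive arrays correlated at 0.07, 0.33 and -0.01, and those of differently numbered arrays at -0.29 to 0.15. So few values cannot show whether a number marks a shared batch. Nothing in the labels says which arrays of a number share a rat, and no scan batch was used here.

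Named genes were the 12 per direction with the smallest p among genes without overlap, up to 4 per gene list by p (2 by level for cell types), a fixed set of dopamine, stress and trophic genes, and the leading genes of the second test. Other genes named were chosen after their values were seen. The comparison, the gene lists and the tests were chosen with earlier results of these data known. Alternatives were keeping non-dependent replicate 2, fitting only the 7 arrays compared, a replicate block, no filter or a filter at 6, quantile and median scaling, the mean of all probe sets of a gene, array weights, the methods' t-test, and leaving out each array. The spread from 61 arrays was added after the data were seen. Figures were drawn with matplotlib 3.10.9.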

Additional observations from a re-analysis of the deposited data

Results flagged for a closer look

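Dixon's ratio, the gap of the most distant of 4 arrays over the group's range, was above its critical value for 4 samples in 17 of 230 groups of 4 arrays looked at, where chance gives about 1 in 20. Among naive arrays it was 0.853 for Gtf3c6 (replicate 1 the lowest), 0.878 for Atp5f1d, 0.843 for Ndufa13, 0.916 for Kcnj6 (replicate 1 the lowest), 0.905 for Nr3c2 (replicate 1 the highest), 0.904 for Nalcn (replicate 1 the lowest), 0.859 for Rab3c (replicate 4 the lowest) and 0.917 for the highest correlation of an array with any other array (replicate 3 the lowest). Among dependent arrays it was 0.84 for Clip2, 0.865 for Txlng, 0.884 for Luc7l2, 0.853 for Chchd5, 0.86 for Polr2j, 0.933 for Chrna5, 0.924 for Pdyn and 0.896 for the bacterial hybridization controls, which were at 8.29 on dependent replicate 3 and at 9.36 to 9.48 on the other dependent arrays. With non-dependent replicate 2 included, the highest correlation with any other array gave 0.973 in the non-dependent group.

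The VTA difference between non-dependent and naive rats differed from the mean of the 7 other regions for 14 genes (limma, adjusted p under 0.05). The difference of differences was -1.285 for Rab40b, -1.028 for Mdga2, -0.763 for Gtf3c6, -0.604 for Luc7l2, 0.886 for Fbxo2, 0.985 for Paqr7, 1.069 for Clip2, 0.575 for Nme2, 0.839 for Rint1, 0.755 for Hsp90ab1, 0.503 for Smpd1, 0.576 for Tkt, 0.975 for Ndufv3 and 0.795 for Polr2j.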

How the results depend on the processing

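With 3 arrays against 4, no alternative fit of the VTA arrays called a gene except array weights, which called 8 higher and 15 lower and gave non-dependent replicate 1 a weight of 4.97 and replicate 4 a weight of 0.453. Dim genes have compressed signals, and the adjusted test needs differences above the 0.36 of a typical single-gene interval. Of 2345 values of 109 named genes under the alternatives, 2272 kept their direction and side of the threshold. Another 32 passed it only under the alternative and 41 changed sign, and 92 genes never changed sign. Part of this was fixed by design. Leaving out a dependent array, fitting only the arrays compared, changing the filter and the methods' t-test cannot change a gene's difference. Nor can the spread taken over all regions. With no gene called in the main fit, values could only move past the threshold, not back. The share kept is therefore not a measure of robustness.

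Counts at an unadjusted p under 0.05 were 477 higher without a filter and 177 with a filter at 6, 655 higher and 731 lower with array weights, and 475 higher and 480 lower with the spread from 61 arrays, which called 11 higher and 5 lower. Genes higher without overlap were 147 when non-dependent replicate 2 was kept, 466 without a filter and 192 with a filter at 6. The replicate block called 0 genes, with 401 higher and 335 lower at an unadjusted p under 0.05. Leaving out 1 array gave 0 calls each time, 130 to 475 higher and 169 to 566 lower at an unadjusted p under 0.05, and 293 to 799 higher and 268 to 808 lower without overlap. The comparison with the other regions called 0 genes over all 64 arrays (lowest adjusted p 0.070) and 0 against the nucleus accumbens alone (lowest adjusted p 0.079), and 1 to 102 with 1 array left out. The causes were not tested.

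Differences that changed sign with non-dependent replicate 2 kept were -0.025 for Rab8b, 0.11 for Ssr4, -0.19 for Ndufa9, -0.10 for Ddc, -0.011 for Drd2, -0.016 for Ret, -0.082 for Gad1, -0.10 for Slc17a6, -0.39 for Kcnj6, 0.34 for Bdnf, -0.20 for Atf4 and -0.17 for Cldn5. With the mean of probe sets they were -0.004 for Ndufa9, -0.017 for Slc18a2, -0.018 for Gad1 and 0.15 for Mobp. With array weights they were -0.027 for Th, -0.044 for Drd2, -0.16 for Ret and -0.17 for Kcnj6, with quantile normalization -0.022 for Gad1, and with the replicate block -0.007 for Slc17a6. Leaving out 1 array gave -0.40 to 0.15 for Bdnf, -0.032 to 0.070 for Gad1, -0.23 to 0.19 for Kcnj6, -0.21 to 0.072 for Mobp, -0.074 to 0.16 for Ret, -0.17 to 0.30 for Slc17a6, -0.17 to 0.49 for Slc18a2, -0.10 to 0.35 for Slc6a3 and -1.96 to 0.76 for Slc6a4.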

Other observations

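Further gene groups were described after their values had been seen. Mitochondrial ribosomal proteins, which make the proteins encoded by mitochondrial DNA, were tested for 70 genes. Of these, 56 had a positive difference, against 4323 of all 8814 genes, 7 were higher at an unadjusted p under 0.05 and 0 were lower (10.0%, beside 3.22% higher and 3.28% lower of all genes), with a median of 0.16, against -0.04 in dependent VTA. Mrps12 was higher by 0.44 and Mrpl17 by 0.34. With 1 array left out, 1 was higher without non-dependent replicate 4, 3 without naive replicate 2, 4 without naive replicate 4 and 11 without naive replicate 1. The counts over all genes moved too. They were 130 of 8803, 244 of 8816, 268 of 8803 and 433 of 8814 higher in the same order. Without non-dependent replicate 4 the list's share was near that of all genes.

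Of 23 genes of fatty acid oxidation, 4 were higher and 0 lower at an unadjusted p under 0.05 (17.4%, beside 3.22% higher and 3.28% lower of all genes). Beside Eci2 these were Hadha, the trifunctional protein subunit, at 0.40, Cpt2, the inner carnitine palmitoyltransferase, at 0.58, and Acad9, an acyl-CoA dehydrogenase that also assembles complex I, at 0.46. The list's median was 0.03, and it was -0.06 without naive replicate 1 and -0.03 without non-dependent replicate 4, so it has no settled sign. Of 18 genes of glycolysis and the pentose phosphate pathway, 15 were positive and 3 were higher: Taldo1, the transaldolase, at 0.54, Aldoa, an aldolase, at 0.50, and Tkt. The citric acid cycle had 1 of 17 higher, and 36 proteasome genes had 1 higher.

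Of 154 zinc finger genes named Zfp that were tested, 68 had a positive and 86 a negative difference. At an unadjusted p under 0.05, 18 were lower and 4 higher (14.3%, beside 6.5% of all genes), and 19 were lower and 4 higher without overlap, beside 3.05% lower and 3.32% higher of all genes, with a median of -0.05. Zfp354a was among the lower, at -0.66. With 1 array left out, 9 were lower without non-dependent replicate 4, 11 without naive replicate 3 and 12 without naive replicate 2, and up to 22 in the other settings that left out 1 array. Over all genes the lower counts without these 3 arrays were 169 of 8803, 206 of 8818 and 222 of 8816.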
